A study of Mus musculus with 28 samples.

Results

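The metallothioneins measured here are Mt1, Mt2 and Mt3, taken by gene symbol from the raw count table: 3 of its 50686 genes, all among the 16735 that passed the filter on low counts. The table comes from dorsal hippocampus of male C57Bl6 mice, in 28 libraries of 6 groups. The Cort, RU486, C108 and C118 groups (5 libraries each) had auditory fear conditioning, a task that couples a sound to a shock, and a ligand of the glucocorticoid receptor. Cort usually stands for corticosterone, which is the chief glucocorticoid hormone in mice, and RU486 is mifepristone, which blocks the receptors for glucocorticoids and progesterone. C108 and C118 are code names. Vehicle mice (4 libraries) had conditioning and vehicle, and Basal mice (4 libraries) had neither conditioning nor treatment. No doses, times or ages are stated in the labels. Conditioning and vehicle handling cannot be told apart in any difference from Basal. Libraries are named by group and sample number, and gene counts per library totalled 16.2 to 20.3 M (M, 10 to the power of 6).

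Metallothioneins are small, cysteine-rich proteins that bind zinc and copper and scavenge reactive oxygen. Mt1 and Mt2 are inducible in most tissues, by metals through the transcription factor MTF1 and its metal response elements, and by glucocorticoids. In brain they are made mainly by astrocytes. Mt3 is the brain-enriched form, also called growth inhibitory factor, and is little induced by metals. Mt4 belongs to stratified epithelium.

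The 3 genes lie on the plus strand of mouse chromosome 8 (GRCm38, GENCODE M21), each with 3 exons. Mt3 (ENSMUSG00000031760) spans 94152607 to 94154146, Mt2 (ENSMUSG00000031762) spans 94172664 to 94173568 and Mt1 (ENSMUSG00000031765) spans 94179082 to 94180327. The gap between Mt2 and Mt1 is 5513 bases, that between Mt3 and Mt2 is 18517 bases, and Mt4 lies 13575 bases before Mt3. Mt4 had 1 count in Basal 9 and 1 count in C108 34, and 0 counts in the other libraries. An antisense gene, Gm45774, overlaps Mt2, and 22.4% of the 100-base windows along the Mt2 transcripts also lie in Gm45774 exons. The strand setting of the counting is not given in the sources used here. Gm45774 had at most 26 counts in any library. Mt1 and Mt3 share no such window with another annotated gene.

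Because Mt1 and Mt2 lie side by side and correlated closely across libraries, as given with their values, the 200 bases before each RefSeq start (GRCm38.p6, plus strand, 5′ to 3′) are shown, with capitals marking the core of the metal response element on either strand.
Mt1, chr8:94178889-94179088: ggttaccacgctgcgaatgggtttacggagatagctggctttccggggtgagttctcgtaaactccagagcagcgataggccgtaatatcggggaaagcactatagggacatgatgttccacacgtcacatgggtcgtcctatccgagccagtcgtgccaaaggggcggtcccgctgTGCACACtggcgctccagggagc
Mt2, chr8:94172418-94172617: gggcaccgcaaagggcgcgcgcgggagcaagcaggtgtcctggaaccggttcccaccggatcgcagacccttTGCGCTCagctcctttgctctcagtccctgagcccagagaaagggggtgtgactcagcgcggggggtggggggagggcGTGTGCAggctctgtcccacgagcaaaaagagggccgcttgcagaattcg
Mt3, chr8:94152407-94152606: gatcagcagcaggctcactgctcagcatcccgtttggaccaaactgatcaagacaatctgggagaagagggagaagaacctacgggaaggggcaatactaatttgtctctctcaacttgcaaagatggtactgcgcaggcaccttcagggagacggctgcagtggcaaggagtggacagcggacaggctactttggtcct

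The core was searched as TGCACNC or TGCGCNC on both strands. The printed windows hold 1 core in Mt1, at position -23 from the start, 2 in Mt2, at -128 and -50, and 0 in Mt3. Over 250 bases before the start Mt2 has 3 cores. Of 32851 such windows 1.26% have at least 3 and 21.4% have at least 1. With the 50 bases after the start included, Mt1 holds 3 cores (1.97% of windows have at least as many), Mt2 holds 4 (0.517%) and Mt3 holds 1 (25.7%). The glucocorticoid response element, AGAACA and TGTTCT with 3 free bases between them, had 0 matches in the 250 bases before any of the 3 starts, and 0.00913% of windows hold it. Its half-site AGAACA had 0 matches as well, against 16.1% of windows. In mouse, the elements known for glucocorticoid induction of Mt1 and Mt2 lie further upstream, outside these windows. GENCODE M21 also lists Mt1 starts at 94179211 and 94179241, downstream of the RefSeq start at 94179089, and its Mt2 starts, at 94172664 and 94172860, both lie downstream of the RefSeq start at 94172618. The windows shown end before these starts. The bases right before the 2 later Mt1 starts were not searched, so the core counts and their shares of windows hold for the RefSeq starts alone. A match is a description of the letters and not of a bound site.

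Mt1 was higher than in Basal mice in all 5 conditioned groups and Mt2 in 4 of them, with RU486 just short of the threshold. Mt3 did not pass the test in any group. Levels are given in CPM (counts per 10 to the power of 6 gene counts, on library sizes scaled by the trimmed mean of M values). Vehicle libraries 3, 16, 23 and 29 had 216.3, 221.7, 274 and 180.9 CPM of Mt1, against 120.7, 151.1, 120.6 and 112.3 CPM in Basal libraries 1, 9, 14 and 27. All 4 Vehicle libraries lay above all 4 Basal libraries. The share of all tested genes without overlap between groups was not computed, here or in the other comparisons. The mean was 223 ± 38.4 CPM in Vehicle and 126 ± 17.1 CPM in Basal (SD, n = 4 each), a log2 fold change of 0.82 ± 0.17 (SE, edgeR quasi-likelihood test, adjusted p = 0.00429), or 1.77-fold with a 95% interval of 1.39 to 2.25. The test was called at an adjusted p under 0.05, and 1.64% of all tested genes were called higher in this comparison.

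Mt2 rose as well. The same Vehicle libraries had 186.3, 173.3, 201.8 and 146.4 CPM, against 76.17, 94.47, 74.89 and 59.44 CPM in the Basal libraries. The lowest Vehicle library stood above the highest Basal library. Mt2 had a log2 fold change of 1.22 ± 0.22 (SE, edgeR adjusted p = 0.00116), or 2.32-fold with a 95% interval of 1.71 to 3.16.

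Mt3 had 164.1, 167.8, 225.9 and 154.8 CPM in the 4 Vehicle libraries, against 177.6, 187, 179.8 and 213.9 CPM in the Basal libraries. Vehicle 23 was the highest of the 8 and the other Vehicle libraries were the 3 lowest, so that the groups overlapped. Mt3 had a log2 fold change of -0.09 ± 0.13 (SE, edgeR adjusted p = 0.792), with a 95% interval of -0.37 to 0.19. The lower bounds for Mt1 (0.47) and Mt2 (0.77) lie above that interval, and the difference in change between Mt3 and its neighbours was not tested.

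**Figure D1:**
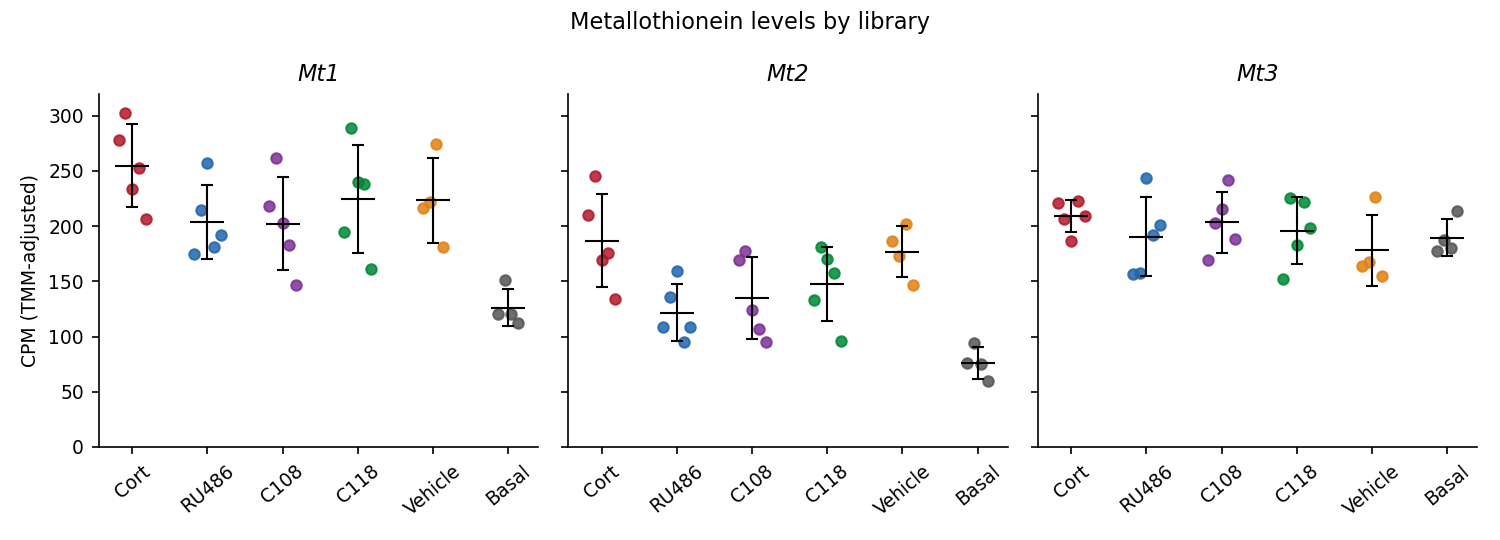
Level of Mt1, Mt2 and Mt3 in CPM (vertical axis) in each library (points), by group, with the mean (bar) and SD (whiskers). For Mt1 and Mt2 the Basal points sit at the foot of the panels, between 112.3 and 151.1 CPM and between 59.44 and 94.47 CPM, while Mt3 lies between 151.7 and 243.1 CPM in all 6 groups.

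The ligand groups had the same conditioning as Vehicle, and each was also set against Basal. These 5 comparisons share the 4 Basal libraries and are not independent of one another. Cort libraries 4, 11, 17, 30 and 36 had 278.3, 302.1, 233.6, 252.7 and 206.3 CPM of Mt1, the highest group mean at 255 ± 37.4 CPM (SD, n = 5). All 5 lay above Basal, with a log2 fold change of 1.01 ± 0.16 (SE, edgeR adjusted p = 0.000196). In Mt2 they had 210.1, 245, 168.9, 175.6 and 134 CPM, and all 5 again lay above Basal. Mt2 rose by 1.29 ± 0.21 (SE, log2, edgeR adjusted p = 0.00022), and 2.84% of tested genes were called higher in Cort than in Basal.

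RU486 libraries 6, 12, 19, 25 and 32 had 174.4, 214.8, 257.3, 181.2 and 191.6 CPM of Mt1, all above Basal. Mt1 rose by 0.69 ± 0.16 (SE, log2, edgeR adjusted p = 0.0126), where 2.61% of genes were called higher. In Mt2 they had 108.7, 135.8, 159.6, 95.08 and 108.4 CPM. The lowest, RU486 25, lay just above the highest Basal library, at 94.47 CPM. Mt2 did not pass in RU486 against Basal, with a log2 fold change of 0.67 ± 0.21 (SE, edgeR adjusted p = 0.0528) and a 95% interval of 0.25 to 1.10. It passed without Basal 9 (edgeR adjusted p = 0.0319), without RU486 6 (0.0489) or without RU486 25 (0.0458). It did not pass without Basal 1 (0.132), Basal 14 (0.148), Basal 27 (0.148), RU486 12 (0.0969), RU486 19 (0.151) or RU486 32 (0.0627). The Mt1 call was lost without Basal 1 (0.0537) or Basal 14 (0.0634).

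C108 libraries 8, 21, 26, 34 and 39 had 217.9, 261.4, 202.6, 182.7 and 146.8 CPM of Mt1. C108 39 fell below Basal 9, so that the groups overlapped. Mt1 rose by 0.68 ± 0.16 (SE, log2, edgeR adjusted p = 0.0129), where 2.79% of genes were called higher. In Mt2 they had 169.1, 177.8, 124.1, 107 and 95.23 CPM, a log2 fold change of 0.82 ± 0.21 (SE, edgeR adjusted p = 0.0183). The Mt1 call was lost without Basal 1 (adjusted p = 0.0589) or Basal 14 (0.0595), and the Mt2 call without Basal 1 (0.0676), Basal 14 (0.0687) or Basal 27 (0.0628).

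C118 libraries 7, 13, 20, 33 and 38 had 194.8, 288.7, 239.5, 238.1 and 160.7 CPM of Mt1, and 133.4, 180.7, 170, 157.6 and 96.2 CPM of Mt2. All 5 lay above Basal for both genes, and C118 38 was the lowest in each. The log2 fold changes were 0.83 ± 0.16 for Mt1 (SE, edgeR adjusted p = 0.00348) and 0.95 ± 0.21 for Mt2 (SE, edgeR adjusted p = 0.00874), where 1.74% of genes were called higher.

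Mt3 did not pass in the ligand groups. The Cort libraries had 220.5, 206.6, 186.2, 222.6 and 209.1 CPM and the RU486 libraries 156.7, 157.8, 243.1, 191.9 and 201.3 CPM. The C108 libraries had 169.1, 203.2, 215, 241.5 and 187.9 CPM and the C118 libraries 151.7, 225.1, 182.5, 221.4 and 198.2 CPM. Each group overlapped Basal. The log2 fold changes of the 4 ligand groups against Basal lay between 0.00 and 0.14, with edgeR adjusted p-values from 0.584 to 0.991.

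**Figure D2:**
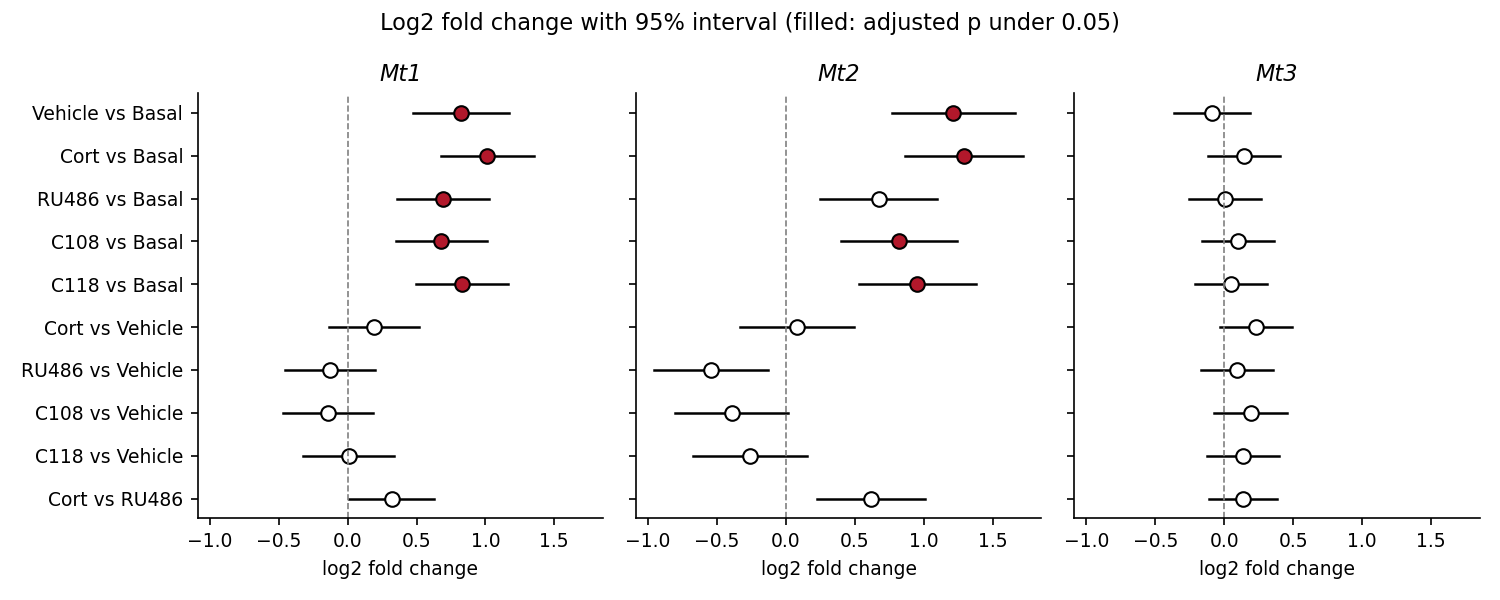
Log2 fold change (points) with its 95% interval (lines) for Mt1, Mt2 and Mt3 in 10 comparisons, filled where the adjusted p was under 0.05. The comparisons with Basal lie between 0.68 and 1.01 for Mt1 and between 0.67 and 1.29 for Mt2, and the intervals of Mt3 all cover 0.

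Set against Vehicle, none of the metallothioneins passed the test in any ligand group, and 1 of the 12 tests had an unadjusted p under 0.05. These 4 comparisons share the Vehicle libraries, and few genes passed in them at all: 0.00598% in Cort, 0% in RU486, 0.215% in C108 and 0% in C118 (in either direction). At an unadjusted p under 0.05 there were 1947, 1366, 2917 and 1340 genes in the same order. By DESeq2 none of the metallothioneins passed against Vehicle either. Mt1 differed from Vehicle by 0.19 in Cort, -0.13 in RU486, -0.14 in C108 and 0.01 in C118 on the log2 scale, each ± 0.16 (SE). The 95% intervals of these 4 differences ran from -0.47 to 0.52 in all, and the edgeR adjusted p-values from 0.647 to 0.995.

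Mt2 gave the widest differences. RU486 libraries averaged 122 ± 25.9 CPM (SD, n = 5) and Vehicle libraries 177 ± 23.4 CPM (SD, n = 4). Of the RU486 libraries 4 of 5 lay below all Vehicle libraries, and the exception was RU486 19 at 159.6 CPM. The log2 fold change was -0.54 ± 0.20 (SE), with a 95% interval of -0.95 to -0.13 and an unadjusted p of 0.012, which did not pass after adjustment over all genes (edgeR adjusted p = 0.417). Mt2 differed by -0.39 ± 0.20 in C108 (edgeR adjusted p = 0.306), by -0.26 ± 0.20 in C118 (0.777) and by 0.08 ± 0.20 in Cort (0.912). For Mt3 the differences from Vehicle were 0.23 in Cort, 0.09 in RU486, 0.19 in C108 and 0.14 in C118, each ± 0.13 (SE, log2), with edgeR adjusted p-values from 0.429 to 0.891.

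Between the ligands, 6 pairs were compared for each gene and none of the 18 tests passed by edgeR (4 had an unadjusted p under 0.05) or by DESeq2. These 4 were Mt1 and Mt2 in Cort against RU486 and in Cort against C108. Over all tested genes 5.34% and 4.88% had such a p in these pairs. Both pairs share the Cort libraries, and Mt1 and Mt2 moved together, so the 4 are not separate results. The largest difference was Mt2 in Cort against RU486, at 187 ± 42.3 CPM in Cort and 122 ± 25.9 CPM in RU486 (SD, n = 5 each). Of the Cort libraries 4 of 5 lay above all RU486 libraries. The log2 fold change was 0.62 ± 0.19 (SE), with a 95% interval of 0.23 to 1.01 and an unadjusted p of 0.00317, and the edgeR adjusted p was 0.48, where 0.0538% of genes passed in either direction. It passed in 1 alternative, with the share of counts given to no gene as a covariate, and over the others the adjusted p ran from 0.0571 to 0.956. Mt1 in the same pair differed by 0.32 ± 0.15 (SE, edgeR adjusted p = 0.91). Cort against C108 gave 0.33 ± 0.15 for Mt1 (adjusted p = 0.965) and 0.47 ± 0.19 for Mt2 (0.938). The remaining differences in these 2 genes ran from -0.28 to 0.34 on the log2 scale, and in Mt3 all 6 ran from -0.10 to 0.14.

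In order of mean level, Mt1 was highest in Cort (255 CPM), then C118 (224), Vehicle (223), RU486 (204), C108 (202) and Basal (126). Each neighbouring pair from Cort to C108 differed by less than the SD of either group. Mt2 ran from Cort (187 CPM) through Vehicle (177), C118 (148), C108 (135) and RU486 (122) to Basal (76.2). The gap between RU486 and Basal exceeded the SD of both groups, that between Vehicle and C118 exceeded the SD of Vehicle alone, and the other gaps were under either SD. Mt3 ran from Cort (209 CPM) through C108 (203), C118 (196), RU486 (190) and Basal (190) to Vehicle (178), with all gaps under the SD of either group. Per kilobase of exon, over all 28 libraries, Mt2 averaged 241 CPM, Mt3 averaged 183 CPM and Mt1 averaged 167 CPM, which placed them at ranks 86, 130 and 166 of 16696 genes. In Basal the order of level per kilobase was Mt3 (178 CPM), Mt2 (130 CPM) and Mt1 (101 CPM). The exon length was the union over annotated transcripts: 1246 bases for Mt1, which is its whole span, 588 for Mt2 and 1066 for Mt3. The order per kilobase rests on these lengths, and before division by length Mt1 stood above Mt2 in Basal (126 against 76.2 CPM).

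The ratio of Mt1 to Mt2 counts was lowest in Vehicle and highest in RU486 and Basal, and no pair of groups passed the test after adjustment. A ratio within a library needs no scaling between libraries, but it can still follow other differences between them. Its values beside the share of reads given to no gene are described further on. The mean ratio was 1.38 ± 0.115 in Cort, 1.69 ± 0.139 in RU486, 1.53 ± 0.161 in C108, 1.53 ± 0.105 in C118 (SD, n = 5 each), 1.26 ± 0.0823 in Vehicle and 1.67 ± 0.146 in Basal (SD, n = 4 each). The Vehicle libraries stood at 1.16, 1.28, 1.36 and 1.24, against 1.58, 1.6, 1.61 and 1.89 in Basal, with no overlap. The difference of mean log2 ratios was -0.41 for Vehicle against Basal (exact two-sided permutation p = 0.0286, the smallest that 4 against 4 allows, adjusted p = 0.0794 over the 15 pairs of groups). RU486 libraries stood at 1.6, 1.58, 1.61, 1.91 and 1.77, all above Vehicle, with a difference of 0.43 on the log2 scale. Against Basal RU486 differed by 0.02 (exact permutation p = 0.762). Cort against RU486 gave -0.29 with no overlap (exact permutation p = 0.00794, the smallest that 5 against 5 allows).

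Cort against Basal (-0.27), RU486 against Vehicle (0.43) and C118 against Vehicle (0.28) reached an exact permutation p of 0.0159, the smallest that 5 against 4 allows. C108 against Vehicle (0.28) gave an exact permutation p of 0.0317. After Benjamini-Hochberg adjustment over the 15 pairs none passed, the smallest adjusted p being 0.0595. Counts of Gm45774, which overlaps Mt2, numbered at most 26 in a library, where Mt2 had at least 1232 counts. These counts do not show how many reads from the shared stretch were given to neither gene. The part of the overlap in the Mt2 level and in the ratio was not tested.

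**Figure D3:**
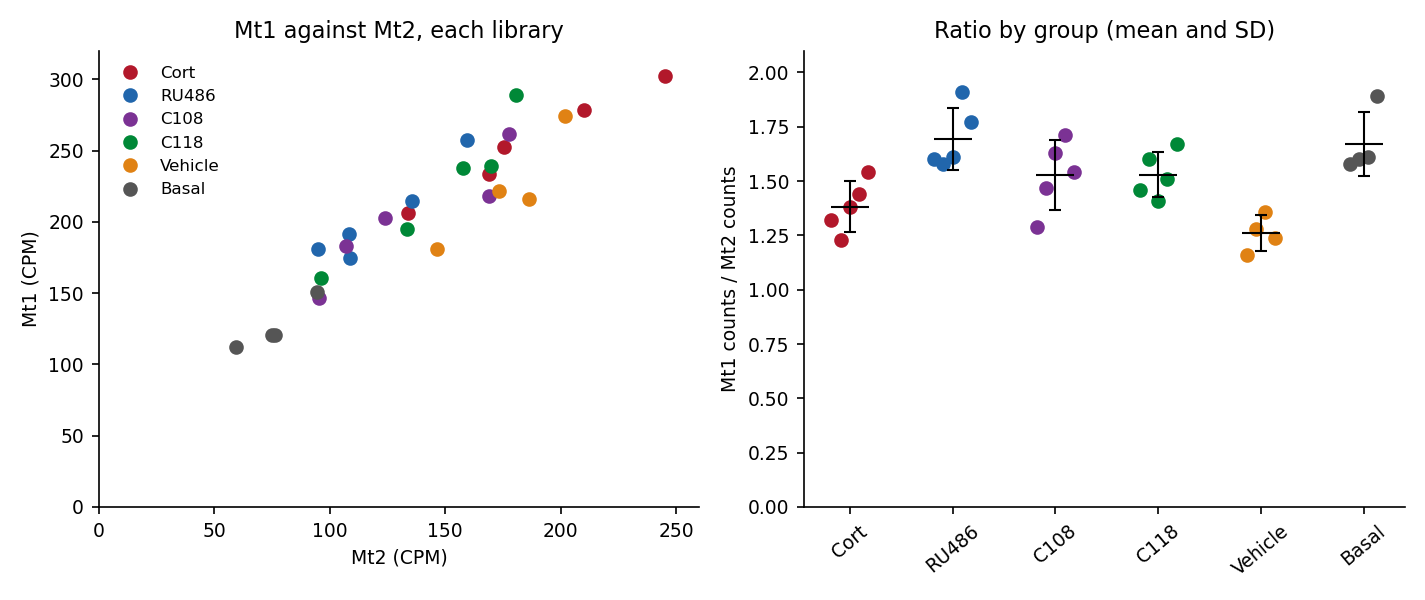
Left, Mt1 against Mt2 in CPM, each point a library, coloured by group. Right, the ratio of Mt1 counts to Mt2 counts by group, with points for libraries, a bar for the mean and whiskers for the SD; Vehicle is lowest on average, between 1.16 and 1.36, and Basal 27 and RU486 25 stand highest, at 1.89 and 1.91.

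Within groups Mt1 and Mt2 moved together from library to library. After subtraction of each group's mean, log2 CPM of Mt1 and Mt2 correlated with Pearson r = 0.938 and Spearman rho = 0.938 over 28 libraries (permutation p = 1e-05 for each, the smallest that 100000 permutations give, adjusted p = 3e-05 over 3 pairs). Without C108 39 and C118 38, the libraries farthest from the median, r was 0.917. Mt1 and Mt3 gave r = 0.387 (permutation p = 0.0426, adjusted p = 0.0639) and rho = 0.352 (permutation p = 0.0677). Mt2 and Mt3 gave r = 0.11 (permutation p = 0.575). The handling of reads with several alignments is not given in the sources used here.

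A measure of the libraries moved with this co-variation. The share of a library's counts in HTSeq's summary rows, which hold reads given to no gene, lay between 12.6 and 18.9% in C118 libraries, between 13.4 and 19.5% in C108, between 13.8 and 18.2% in Cort, between 15.4 and 18.9% in RU486, between 17.4 and 19.5% in Vehicle and between 14.1 and 19.7% in Basal. Cort 36, RU486 25, C108 39, C118 38 and Basal 27 had the lowest share of their groups and also the lowest Mt2. In Vehicle the lowest share was that of Vehicle 3 (17.4%), and the lowest Mt2 that of Vehicle 29 (146.4 CPM, share 18%). Basal 9 and Vehicle 23 had the highest share and the highest Mt1 and Mt2 of their groups. In Cort, RU486, C108 and C118 the highest share and the highest Mt2 lay in different libraries. After subtraction of group means the share correlated with Mt2 at r = 0.826 and rho = 0.761 over 28 libraries (permutation p = 1e-05 for each, adjusted p = 3e-05 over 3 genes). For Mt1 the values were r = 0.706 and rho = 0.653 (permutation p = 4e-05 and 0.00017, adjusted p = 6e-05 and 0.000255), and for Mt3 r = -0.251 and rho = -0.293 (permutation p = 0.199 and 0.131). Without Basal 27 and C118 38, r was 0.773 for Mt2 and 0.64 for Mt1. The lowest-share libraries Cort 36, RU486 25, C118 38 and Basal 27 also had the highest Mt1 to Mt2 ratio of their groups (1.54, 1.91, 1.67 and 1.89). In C108 and Vehicle this was not so: C108 39 had 1.54 and Vehicle 3 had 1.16, the lowest of its group. The part of the share in the ratio differences between groups was not tested.

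With this share as a covariate, a choice made after these values were seen, Mt1 and Mt2 passed in each of the 5 conditioned groups against Basal. In Vehicle the log2 fold changes were 0.71 for Mt1 and 1.07 for Mt2 (edgeR adjusted p = 0.000791 and 5.88e-06). Mt2 in RU486 against Basal had 0.62 (adjusted p = 0.00189). Mt2 in Cort against RU486 then passed as well, at 0.76 (adjusted p = 0.00109), where 38 genes were called in place of 9. Since the share was already seen to move with Mt1 and Mt2 within groups, smaller p-values for these genes are partly built in. These calls are therefore no separate support.

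Astrocyte markers moved with Mt1 and Mt2 within groups. All 15 listed markers were detected in every library, and their summed level was 6212 to 8782 CPM in Cort libraries, 7073 to 8728 CPM in RU486 libraries, 5584 to 9367 CPM in C108 libraries, 5315 to 9457 CPM in C118 libraries, 8271 to 10080 CPM in Vehicle libraries and 7318 to 8819 CPM in Basal libraries. The score of the list is the mean of its members' log2 CPM after centring each on all libraries. The lowest scores were -0.58 in C118 38, -0.53 in C108 39 and -0.36 in Cort 36, and these 3 libraries also had the lowest Mt1 and Mt2 and the lowest share of summary-row counts of their groups. After subtraction of group means the score correlated with Mt1 at r = 0.7 and rho = 0.589 (permutation p = 2e-05 and 0.00121, adjusted p = 4.5e-05 and 0.00303 over 3 genes). For Mt2 the values were r = 0.695 and rho = 0.57 (permutation p = 3e-05 and 0.00202, adjusted p = 4.5e-05 and 0.00303). Without C108 39 and C118 38, r was 0.536 for Mt1 and 0.551 for Mt2. For Mt3 r was 0.129 (permutation p = 0.514) and rho was 0.268 (permutation p = 0.164). Other cell lists were not set against Mt1 and Mt2 in this way, so the link is not shown to be particular to astrocytes. In C118, C108 and Cort the lowest microglial scores were -0.47, -0.37 and -0.41, and the lowest endothelial scores -1.15, -1.13 and -0.68. Neuronal scores went the other way, with highest values of 0.31, 0.32 and 0.29. In bulk tissue a smaller share of a cell type and less RNA per cell cannot be told apart.

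With the astrocyte score as a covariate, a choice made after these values were seen, Mt1 differed between Vehicle and Basal by 0.67 and Mt2 by 1.03 on the log2 scale (edgeR adjusted p = 0.00194 and 0.000282). As with the summary-row share, smaller p-values are partly built in here. Of the 15 markers 1 rose in Vehicle against Basal, where 1.64% of genes did, and the list's median log2 fold change was 0.16, beside 0.00 over all genes. The marker that rose was Gjb6, the astrocyte gap-junction protein connexin 30, at 74.6 ± 10.4 CPM in Vehicle and 35.4 ± 5.46 CPM in Basal (SD, n = 4 each), a log2 fold change of 1.08 ± 0.17 (SE, edgeR adjusted p = 0.000241). It also rose in each ligand group against Basal, by 0.70 to 1.06 on the log2 scale. Of the other 14 markers none passed there except Sox9, an astrocyte transcription factor, which was lower in Cort (-0.87, edgeR adjusted p = 0.00693). The list's median log2 fold change against Basal was 0.03 in Cort, 0.02 in RU486, -0.08 in C108 and 0.00 in C118.

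**Figure D4:**
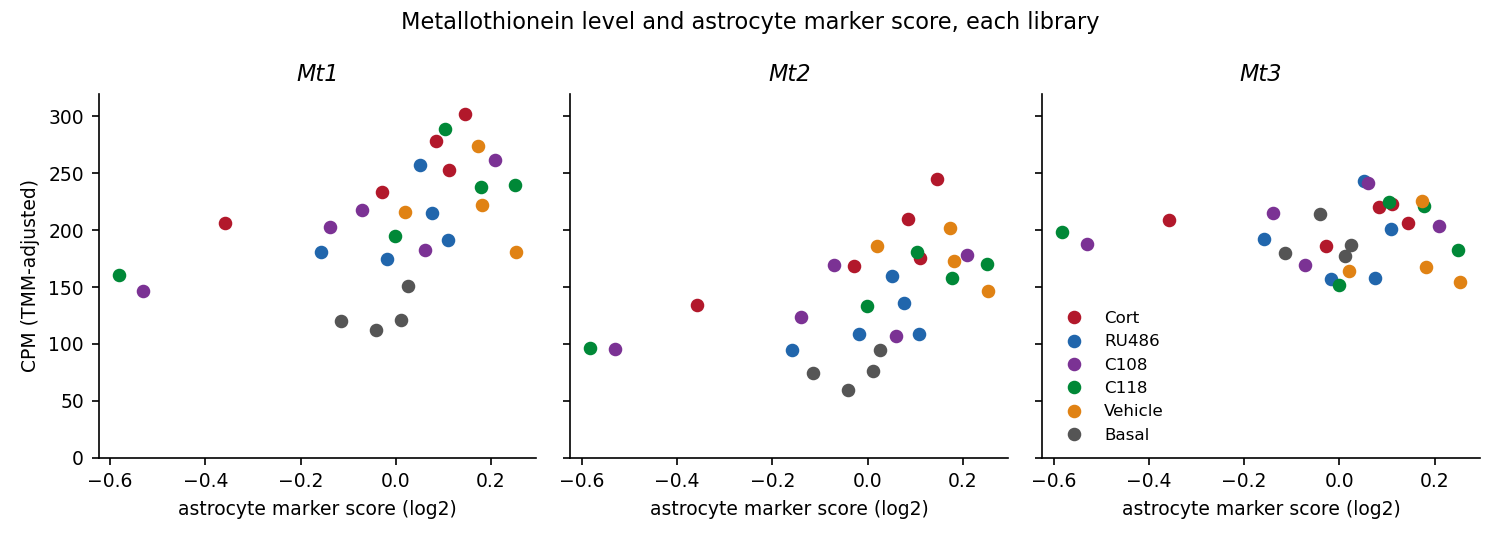
Level of Mt1, Mt2 and Mt3 in CPM (vertical axis) against the astrocyte marker score (log2 units, horizontal axis), each point a library, coloured by group. C118 38 and C108 39 stand apart at the left, at -0.58 and -0.53, low in Mt1 and Mt2, and Basal lies under the other groups at scores near 0.

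Some markers of blood vessels and of brain regions differed from Basal as well. Of 11 endothelial markers 2 passed in Cort, 1 in RU486, 4 in C108, 2 in C118 and 0 in Vehicle, all of them lower. Over all tested genes 3.43% were called lower in Cort, 2.84% in RU486, 3.24% in C108, 2.13% in C118 and 2.47% in Vehicle. The endothelial list's median log2 fold change was -0.49 in Cort, -0.58 in RU486, -0.77 in C108, -0.62 in C118 and -0.24 in Vehicle. Of 9 neocortical markers 3 were lower in Cort, 3 in RU486, 2 in C108, 3 in C118 and 1 in Vehicle. Of 10 dorsal hippocampus markers 2 were lower in Vehicle: C1ql2, a synaptic protein of dentate granule cells, at -0.58 (edgeR adjusted p = 0.0193) and Neurod6, a neuronal transcription factor, at -0.58 (adjusted p = 0.0168). Amigo2, an adhesion protein of the CA2 field, was higher in Cort, RU486 and C108, by 0.52 to 0.78 on the log2 scale, and C1ql2 was lower in RU486. The part of the endothelial and dorsal hippocampus markers in the metallothionein differences was not tested.

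The summed level of 14 choroid plexus markers was 4463 CPM in RU486 6 and 2724 CPM in RU486 25, against 36.5 to 297.6 CPM in Basal. Thalamic markers summed to 139.6 to 708.4 CPM in Vehicle and 167.1 to 218.2 CPM in Basal, with the highest score in Vehicle 16. With the choroid plexus score as a covariate Mt2 passed in RU486 against Basal (0.70 on the log2 scale, edgeR adjusted p = 0.0397). With thalamus and neocortex scores as covariates Mt1 and Mt2 passed in Vehicle (0.78 and 1.16, adjusted p = 0.00937 and 0.00357) and Cort (0.85 and 1.12, adjusted p = 0.0261 and 0.0238) against Basal. In that fit the calls of Mt1 in RU486, C108 and C118 against Basal were lost (adjusted p = 0.198, 0.097 and 0.129), as were those of Mt2 in C108 and C118 (0.115 and 0.178).

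Other genes of metal handling were read against all tested genes, of which in Vehicle against Basal 1.64% were called higher, 2.47% were called lower and 18.1% had an unadjusted p under 0.05. In lists of 8 to 17 genes a count of 0 or 1 called is near this background and says nothing particular about the list. Of 8 tested zinc exporters 0 passed in Vehicle against Basal by edgeR (2 at an unadjusted p under 0.05, and 0 by DESeq2), with a median log2 fold change of 0.15. Slc30a1, the plasma membrane exporter that MTF1 is known to induce, stood at 45.3 ± 3.9 CPM in Vehicle and 38.7 ± 6.28 CPM in Basal (SD, n = 4 each), with a log2 fold change of 0.23 ± 0.12 (SE, edgeR adjusted p = 0.306). Slc30a6, a Golgi exporter, had 0.29 ± 0.09 (SE, edgeR adjusted p = 0.0774). It was the sole exporter that passed in any comparison with Basal, in RU486 (0.30, adjusted p = 0.0497), where the call was lost under 15 of 19 alternatives tried.

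Of 13 tested zinc importers 0 passed in Vehicle against Basal by edgeR (3 at an unadjusted p under 0.05, and 1 by DESeq2), with a median of 0.06. Slc39a6 stood at -0.25 ± 0.08 (SE, edgeR adjusted p = 0.0696). Slc39a14, the importer ZIP14, rose in Cort (64 ± 3.27 CPM, SD, n = 5) against Basal (50.1 ± 3.79 CPM, SD, n = 4), by 0.36 ± 0.08 (SE, log2, edgeR adjusted p = 0.00552). It rose in C108 by 0.28 (adjusted p = 0.0357), where Slc39a8, the importer ZIP8, fell by 0.88 (adjusted p = 0.0269), beside 3.24% of all genes called lower in C108. Both C108 calls were lost on leaving out Basal 1 (adjusted p = 0.117 for Slc39a14 and 0.129 for Slc39a8), Basal 14, C108 26, C108 34 or C108 39, and that of Slc39a14 also without Basal 27 or C108 8.

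Of 13 genes for MTF1 and copper handling 0 passed in Vehicle against Basal by edgeR (1 at an unadjusted p under 0.05, and 0 by DESeq2), with a median of 0.02. Mtf1 itself had a log2 fold change of 0.09 (edgeR adjusted p = 0.669). The copper transporter Atp7a rose in RU486 by 0.59 (adjusted p = 0.02) and the related Atp7b fell in C108 by 0.73 (adjusted p = 0.023), each against Basal. Both calls were lost on leaving out Basal 14 (adjusted p = 0.0843 and 0.0656) or Basal 27, and that of Atp7b also without Basal 1, C108 34 or C108 39.

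Of 17 antioxidant genes 1 passed in Vehicle against Basal, a count near the background given with the zinc exporters. Hmox1, the inducible heme oxygenase, stood at 6.19 ± 1.42 CPM in Vehicle and 4.16 ± 0.76 CPM in Basal (SD, n = 4 each), a log2 fold change of 0.58 ± 0.15 (SE, edgeR adjusted p = 0.0211). It rose in all 4 ligand groups against Basal as well, by 0.56 to 0.66. The Vehicle call was lost on leaving out Basal 1, Basal 14, Basal 27, Vehicle 3 or Vehicle 23 (adjusted p from 0.0648 to 0.0937) and with only the 2 groups in the fit (0.147). The C108 and C118 calls were lost without Basal 14 (0.0804 and 0.0692) or Basal 27, and the C108 call also without Basal 1 or C108 39. Gclm, a subunit of the enzyme that starts glutathione synthesis, had 0.28 ± 0.09 (SE, edgeR adjusted p = 0.0667). In Cort Srxn1, a sulfiredoxin, rose by 0.28 (adjusted p = 0.0213), and in C108 the cystine transporter Slc7a11 fell by 0.85 (adjusted p = 0.0383). Both calls were lost on leaving out Basal 14 (adjusted p = 0.0771 and 0.0912) or Basal 1, that of Srxn1 also without Cort 36, and that of Slc7a11 also without C108 26, C108 34 or C108 39. With thalamus and neocortex scores as covariates, 11 of the 12 ligand calls named for metal and antioxidant genes were lost, the exception being Srxn1. The log2 fold changes of the 8 lost rises were then 0.27 to 0.50, and those of the 3 lost falls were -0.90 for Slc39a8, -0.69 for Slc7a11 and -0.64 for Atp7b, so that several calls were lost at folds close to those first given.

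Of 18 glucocorticoid-responsive genes 14 rose in Vehicle against Basal, with a median log2 fold change of 0.94, and 15 rose in Cort, 9 in RU486, 14 in C108 and 14 in C118. Of all tested genes 1.64% were called higher in Vehicle, 2.84% in Cort, 2.61% in RU486, 2.79% in C108 and 1.74% in C118. Against Vehicle 0 passed by edgeR in each ligand group (at an unadjusted p under 0.05, 4 in Cort, 10 in RU486, 9 in C108 and 4 in C118), and by DESeq2 2 passed in RU486 and 0 in the others. Over all tested genes the unadjusted share was 11.6% in Cort, 8.16% in RU486, 17.4% in C108 and 8.01% in C118. The metallothioneins are not members of this list. Its genes were chosen with earlier results of these data known, so its counts are a description and not independent support. Fkbp5, the receptor's cochaperone, had 167 ± 9.89 CPM in Cort and 114 ± 8.28 CPM in RU486 (SD, n = 5 each), beside 130 ± 13 CPM in Vehicle and 67.5 ± 9.53 CPM in Basal (SD, n = 4 each).

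**Figure D5:**
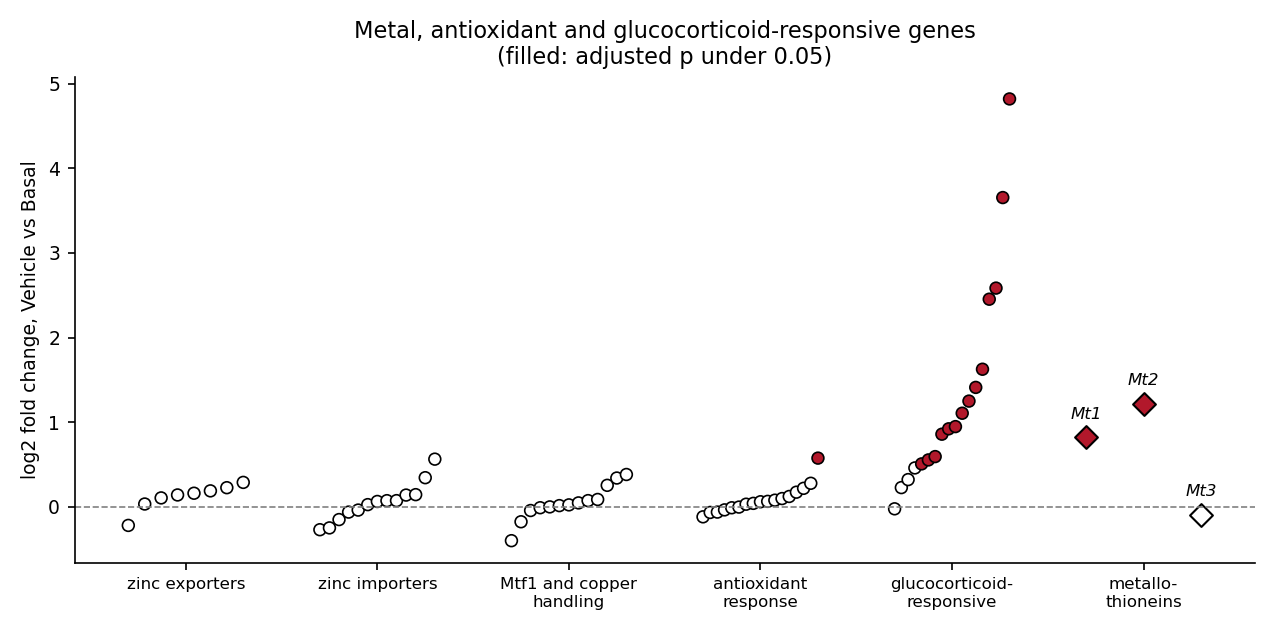
Log2 fold change in Vehicle against Basal (vertical axis) of each tested gene in 5 lists, and of the metallothioneins (diamonds), filled where the adjusted p was under 0.05. In the glucocorticoid-responsive list 14 of 18 points are filled, against 0 of 8 zinc exporters, 0 of 13 zinc importers, 0 of 13 genes of MTF1 and copper handling and 1 of 17 antioxidant genes. The lists were chosen with earlier results of these data known, and the difference between lists was not tested.

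Among 14584 genes with a mean of at least 1 CPM, the most alike to Mt1 over the 28 libraries was Mt2 (Pearson r = 0.951 of log2 CPM), followed by Sdc4 (0.89), Smim3 (0.885), Mxd4 (0.885) and Gjb6 (0.866). The most alike to Mt2 was Mt1, followed by Mxd4 (0.943), Smim3 (0.916), Klf15 (0.915) and Gjb6 (0.895). These r values include the differences between groups, are given without a test, and share library depth and tissue makeup. Sdc4, the heparan sulfate proteoglycan syndecan-4, averaged 104 ± 10.3 CPM in Vehicle and 53.2 ± 13.7 CPM in Basal (SD, n = 4 each). Mxd4, a partner of MAX that represses transcription, averaged 147 ± 23.1 CPM in Cort and 112 ± 8.97 CPM in RU486 (SD, n = 5 each), and 135 ± 6.16 CPM in Vehicle and 88.1 ± 10.4 CPM in Basal (SD, n = 4 each). Klf15, a transcription factor that glucocorticoids are known to induce, averaged 33 ± 6.02 CPM in Cort and 23.9 ± 2.42 CPM in RU486 (SD, n = 5 each). It averaged 31.1 ± 2.13 CPM in Vehicle and 16.3 ± 2.93 CPM in Basal (SD, n = 4 each). Sdc4, Mxd4 and Klf15 were picked by their likeness to Mt1 or Mt2 over all libraries, group differences included. A like order of group means therefore follows from that choice and is no separate support.

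With group means removed Mt1 and Mt2 remained each other's nearest gene (r = 0.938). The next nearest were then Tprkb (0.888), Ndufc2 (0.875), Rasl10b (0.874) and Cst3 (0.871) for Mt1, and mt-Atp6 (0.904), Ndufc2 (0.889), Laptm4a (0.881) and Gm28661 (0.879) for Mt2. Ndufc2 is a subunit of respiratory complex I and Cst3 is cystatin C, a secreted protease inhibitor. Fkbp5 had r = 0.692 with Mt1 over all libraries and -0.195 with group means removed.

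The genes most alike to Mt3 were others. Over the 28 libraries they were Ndufa13 (r = 0.83), a complex I subunit, Lamtor2 (0.828), a scaffold of lysosomal signalling, Timm13 (0.809), a mitochondrial import chaperone, Ppp1ca (0.806), a catalytic subunit of protein phosphatase, and Eef2 (0.805), a translation elongation factor. By likeness to Mt3, Mt1 had place 3145 and Mt2 place 5671 of the 14584. With group means removed the nearest were Cby1 (0.905), Gm12751 (0.866), Hras (0.856), Ergic3 (0.842) and Ndufa2 (0.831). Ndufa13 averaged 80.7 ± 8.07 CPM in Vehicle and 80.1 ± 10.3 CPM in Basal (SD, n = 4 each).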

How the data were processed

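The values are raw read counts for Ensembl genes as deposited. Per the submitters' processing notes, the authors used HTSeq 0.6.1 and build mm10, on stranded, paired-end mRNA libraries, per the labels' protocols. For the aligner, annotation release and strand setting: not given in the sources used here. HTSeq's 5 summary rows (12.6 to 19.7% of counts) were left out. Totals of 16.2 to 20.3 M gene counts gave 1232 to 5709 counts per metallothionein and library, so that the spread between libraries limited precision. The labels do not say whether each library is a separate mouse, so p-values measure the spread between these libraries.

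Genes were filtered with filterByExpr (minimum count 10, minimum total 15), which left 16735. With edgeR 4.0.16 (robust quasi-likelihood, TMM), 1 model over the 28 libraries gave every comparison, two-sided, with Benjamini-Hochberg adjustment over all tested genes and a threshold of 0.05. The SE is the log2 fold change over the root of its F statistic. Log2 CPM used a prior count of 2. Ratios were tested by exact permutation in scipy 1.17.1. The fit was tested on simulated counts. Alternatives used RLE scaling, other filters, DESeq2 1.42.0, limma-voom 3.58.1, only the groups compared, marker scores or the summary-row share as covariates, and each library left out.

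The members, gene lists and tests were chosen with earlier results of these data known. The text names the metallothioneins, the 5 genes most alike to each (by Pearson r, over all libraries and after subtraction of group means), up to 4 genes per pathway list with the smallest p in Vehicle against Basal, and those called beside a called metallothionein; not all of these are printed. Mtf1 was named outside this rule, for its role, and tissue markers after their values were seen. The tests of the astrocyte score and of the summary-row share were chosen after the data were seen. Sequences are from RefSeq, where all 3 genes matched by symbol.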

Additional observations from a re-analysis of the deposited data

Results flagged for a closer look

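The ratio of Mt1 to Mt2 counts in Basal 27 was 1.89, while the other Basal libraries lay at 1.58, 1.6 and 1.61. Its gap to the nearest Basal library was 0.914 of the group's whole range, above Dixon's 95% critical value for 4 samples. Of 24 sets of values tested this was the sole one past that limit, and chance flags about 1 in 20. Basal 27 also had the lowest Mt1 (112.3 CPM) and Mt2 (59.44 CPM) of all 28 libraries, the highest Mt3 of the Basal group (213.9 CPM) and the lowest share of summary-row counts in that group (14.1%).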

How the results depend on the processing

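No paired analysis was possible because no sample number occurs in more than 1 group. Mt1 and Mt2 in Vehicle and Cort against Basal passed under every alternative run, with adjusted p-values up to 0.0255 for Mt1 and 0.00907 for Mt2 in Vehicle, and up to 0.00231 and 0.00215 in Cort, on leaving out 1 library. Leaving out 1 library gave log2 fold changes against Basal of 0.59 to 0.79 for Mt1 and 0.56 to 0.79 for Mt2 in RU486, and of 0.57 to 0.78 and 0.70 to 0.94 in C108. With thalamus and neocortex scores the calls against Basal were lost for Mt1 in RU486 (0.56), C108 (0.62) and C118 (0.71), and for Mt2 in C108 (0.76) and C118 (0.84). Without a filter Mt2 in C108 was lost (0.82), more genes being tested. Mt2 in RU486 against Basal passed with limma-voom (0.67), DESeq2 (0.67), only the groups compared (0.67), the choroid plexus score (0.70), the astrocyte score (0.62) and the summary-row share (0.62). It did not pass with RLE scaling (edgeR adjusted p = 0.0547), the stricter filter (0.0532), no filter (0.143) or thalamus and neocortex scores (0.336). Mt2 in Cort against RU486 passed with the summary-row share alone (0.76), and the cause was not tested.

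Signs turned only among values that were not called. With thalamus and neocortex scores Mt3 was at -0.038 in Cort, -0.18 in RU486, -0.0025 in C108 and -0.13 in C118 against Basal, at -0.057 in RU486 and -0.00852 in C118 against Vehicle, and at -0.036 in Cort against C108. In the same fit Mt2 was at -0.036 in Cort and Mt1 at -0.067 in C118 against Vehicle, and Mt1 at -0.058 in RU486 against C108. Without both Vehicle 16 and Vehicle 29, Mt3 was at 0.041 in Vehicle against Basal and at -0.036 in RU486 against Vehicle, Mt2 at -0.056 in Cort and Mt1 at -0.13 in C118 against Vehicle. With the astrocyte score Mt3 was at -0.00144 in RU486 against Basal, and Mt1 at 0.052 in C108 against Vehicle and -0.064 in RU486 against C108; with the summary-row share the same Mt1 values were 0.047 and -0.11. Mt3 in RU486 against Basal was at -0.0096 with the stricter filter and -0.011 with limma-voom. Mt1 in C118 against Vehicle was at -0.0012 with the stricter filter, -0.00509 with limma-voom, -0.000845 with only the groups compared and -0.011 with the choroid plexus score. On leaving out 1 library the ranges crossed 0 for Mt3 in RU486 (-0.10 to 0.074) and C118 (-0.0016 to 0.13) against Basal, for Mt2 in Cort (-0.039 to 0.17), Mt3 in RU486 (-0.0095 to 0.23) and Mt1 in C118 (-0.11 to 0.12) against Vehicle, and between ligands for Mt3 in Cort against C108 (-0.020 to 0.11), RU486 against C118 (-0.15 to 0.019) and C108 against C118 (-0.024 to 0.11) and for Mt1 in RU486 against C108 (-0.086 to 0.13). The log2 ratio of Mt1 to Mt2 did so in RU486 against Basal (-0.023 to 0.081) and C108 against C118 (-0.047 to 0.055).

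Counts of called genes moved with the processing, as did the metallothionein calls in RU486, C108 and C118 against Basal. Over the alternatives with all libraries, Vehicle against Basal gave 355 to 1007 genes (688 as reported), Cort 371 to 1512 (1049), RU486 120 to 1630 (912), C108 190 to 1343 (1010) and C118 79 to 1238 (648). Leaving out 1 library gave 346 to 940, 595 to 1153, 275 to 1178, 292 to 1496 and 209 to 902 in the same order. Against Vehicle, alternatives gave up to 170 genes in Cort, 207 in RU486, 656 in C108 and 214 in C118. The 33 calls of other named genes against Basal were recomputed 627 times, and the call was lost in 69 of these. The 33 include calls of the glucocorticoid-responsive genes Fkbp5, Tsc22d3, Hif3a and Plin4, of which none was lost. All 69 losses therefore fell on the metal and antioxidant genes, whose calls were less stable than the pooled count shows. Called members per metal or antioxidant list stayed at 0 to 4, and of the glucocorticoid-responsive list at 5 to 15 against Basal. With 4 or 5 libraries a group, differences in Mt2 of -0.54 (RU486 against Vehicle) and 0.62 (Cort against RU486) did not pass as reported. Doses and times are unknown, and conditioning is not separated from handling.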
